A study of Mus musculus with 14 samples.

Results

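Cone bipolar cells (CBCs) carry the signals of cones from the outer to the inner retina. The nuclei described here are those that the authors' deposited annotation of whole retinas labels CBC, 9813 of 77676 retinal nuclei (12.6%). The authors named clusters from marker genes, and no further choice by expression was made here. UMIs (unique molecular identifiers, 1 for each captured transcript) were summed over the CBC nuclei of each library, and the control library was compared with the libraries of *Cdh5CreER;Tgfbr1 CKO/-* (CKO) retinas.

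Cones release glutamate in the dark and less of it in light. ON CBCs receive it through the metabotropic receptor mGluR6, whose G protein cascade closes the TRPM1 channel, so that they depolarize when light comes on, whereas OFF CBCs use ionotropic kainate and AMPA receptors and depolarize when light goes off. Both kinds form several types that differ in where their axons end in the inner plexiform layer, and both release glutamate from ribbon synapses, while rod bipolar cells (RBCs), which also use mGluR6, carry the signals of rods.

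The study asked how loss of TGF-beta signaling in endothelial cells (ECs) changes the vasculature of the retina and brain and its immune cells, and its retinal snRNAseq data were made from nuclei of whole retinas with PIPseq. CKO mice have a floxed and a null allele of *Tgfbr1* and carry the *Cdh5CreER* transgene, and 4-hydroxytamoxifen was given between postnatal day (P)3 and P5. The control is called WT in the labels, and the paper describes its controls as phenotypically wild-type, typically with *Cdh5CreER* and 1 floxed *Tgfbr1* allele. Tissue was taken at P14 according to the paper, while the labels call the mice young adults. *Cdh5CreER* drives recombination in ECs, so CBCs of both groups keep their own *Tgfbr1* alleles unrecombined, and CBCs of CKO mice carry the germline null allele, as do all of their cells. How many mice each library pools is not stated.

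There is 1 control library and there are 11 CKO libraries. The deposited metadata sort them into 3 batches, without saying what a batch marks. The control shares batch 1 with CKO replicates 1 to 3, while batches 2 (CKO replicates 4 and 5) and 3 (CKO replicates 6 to 11) have no control. The control and CKO replicates 1 to 7 were made with version 4 of the PIPseq kit and CKO replicates 8 to 11 with version 5. Over all nuclei the control has 30989702 UMIs and the CKO libraries have between 90449 and 55803724. In the CBC nuclei the control has 5292168 UMIs, and the 10 CKO libraries that hold such nuclei have between 2006138 and 10412292, with a median of 3091845.5. The median CBC nucleus has 3295 UMIs in the control, and between 1917 and 8350 in the CKO libraries, in which the kit 5 libraries (5764 to 8350) are the deepest. CKO replicate 4 holds 104 nuclei after the authors' curation and 0 CBCs, so values per gene come from 11 libraries. Batches 1 and 2 were counted with another gene annotation than batch 3. Of the 28316 gene symbols, 1306 are found in batches 1 and 2 alone and carry 1.15% of their CBC UMIs, and 1848 are found in batch 3 alone and carry 2.30%. Among all nuclei, 10 barcode strings occur in more than 1 library, and 3 CBC nuclei carry such a barcode.

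The label was checked against 3 markers named for it, with levels given as UMIs per 1000000 UMIs of the pooled nuclei of a type (CPM). *Grik1*, a kainate receptor gene, is highest in CBC nuclei, at 3241 CPM against 587 in horizontal cells, the next of 11 labeled types. *Otx2*, a transcription factor gene of photoreceptors and bipolar cells, is at 275 CPM in CBC and 257 in RBC nuclei. *Cabp5*, which encodes a calcium-binding protein of CBCs and RBCs, is second in CBCs, at 184 CPM against 333 in RBCs. The label therefore holds for *Grik1*, while the other markers are shared with RBCs. Since the authors named their clusters from marker genes, the check is not independent of the label.

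RNA of other cell types was present in the CBC nuclei of both groups. The 12 rod markers sum to 6312 CPM in the control, and to 5213, 6170 and 7680 CPM (lowest, median and highest; all CKO values below are given in this order) in the CKO libraries, with *Sag*, a gene of phototransduction, as the most abundant. The 6 RBC markers, led by *Prkca*, sum to 1551 CPM in the control and 997, 1442 and 1900 in CKO. For both lists the control lies inside the CKO range. The 10 cone markers sum to 753 CPM in the control and 794, 935 and 1309 in CKO, above the control in 10 of 10 libraries, and the most abundant of them, *Gnb3*, is also a gene of ON bipolar cells. Müller glia markers differ by kit, with 40.1 CPM in the control, between 32.1 and 48.9 in the CKO libraries of kit 4 and between 115 and 192 in those of kit 5. So do ganglion cell markers (5.48 to 13.96 CPM with kit 4 and 24.5 to 41.4 with kit 5 in CKO) and astrocyte markers (428 to 526 and 556 to 615). Amacrine markers sum to 33.3 CPM in the control and 23.8, 55.5 and 75.2 in CKO, ganglion cell markers to 8.50 and 5.48, 12.9 and 41.4, immune markers to 18.3 and 13.96, 24.8 and 35.6, and EC markers to 28.7 and 18.5, 25.5 and 40.1. Of the 6 horizontal cell markers, the 5 with UMIs in both annotations sum to 58.2 CPM and 44.4, 64.0 and 73.5, and astrocyte markers to 472 and 428, 517 and 615. No marker of these lists is at 0 in all libraries, while in the control 1 ganglion cell, 1 immune and 2 EC markers are at 0. The sixth horizontal cell marker has UMIs in batch 3 alone, whose annotation differs from that of the control. The part of this RNA in the results below was not tested, except where values without the nuclei concerned are given.

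CBC nuclei of some libraries came from mice that differ in sex-linked transcripts. *Xist*, the RNA that silences an X chromosome, reaches 9203 CPM in control CBC nuclei, 9397, 9228 and 7514 CPM in CKO replicates 1, 2 and 7, and 12.2 CPM or less in the other CKO libraries. *Uty*, a Y chromosome gene, is at 3.02 CPM in the control and reaches 342 CPM in the CKO libraries. The control thus resembles 3 CKO libraries in these transcripts and differs from 7.

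A first question is whether CBCs make up another part of the CKO retina. They make up 11.3% of the nuclei in the control (1301 of 11513, 95% exact binomial interval 10.7 to 11.9) and 0%, 12.4% and 15.6% in the 11 CKO libraries (mean 11.6% ± 4.07, SD, n = 11). CKO replicate 6 is highest, CKO replicate 4 is at 0 of 104 nuclei, which allows up to 3.48%, and the control lies below 8 of the 11 CKO libraries. The mean difference of 0.335 percentage points gave p = 1 in a two-sided exact permutation test over libraries, in which 1 control among 12 libraries cannot give less than 0.0833 and so cannot reach 0.05. Without CKO replicate 4 the difference is 1.499 points (exact permutation p = 0.455), and without CKO replicate 6 it is -0.0595, so its sign rests on single libraries. Without both CKO replicates 4 and 5, which the authors curated together, a choice made after seeing the data, it is 1.57 points (exact p = 0.5). In batch 1 the 3 CKO libraries lie between 13.0% and 13.3%, 1.83 points above the control on average (exact p = 0.25, the smallest possible with 4 libraries). The other batches hold CKO libraries only.

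**Figure D1:**
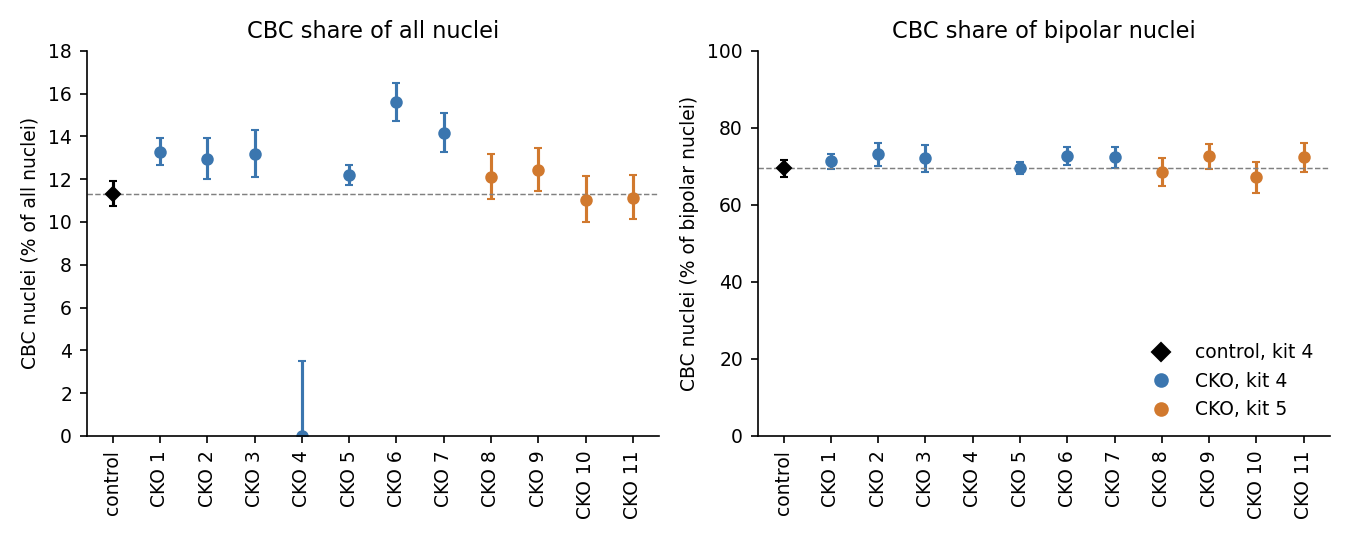
CBC nuclei as a percent of all nuclei (left) and of CBC plus RBC nuclei (right) in each library, with 95% exact binomial intervals as bars and the control level as a dashed line. CKO replicate 4 has 0 CBCs among 104 nuclei, 8 of 11 CKO libraries lie above the control on the left, and 8 of 10 on the right.

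Measured against RBCs, which takes out how many rods a library caught, CBCs are 69.5% of bipolar nuclei in the control (95% exact binomial interval 67.3 to 71.5) and 67.2%, 72.2% and 73.1% in the 10 CKO libraries with bipolar nuclei (mean 71.2% ± 2.01, SD). The control lies inside the CKO range, above 2 of the 10 libraries. The difference of 1.74 points is smaller than the spread of the CKO libraries (exact permutation p = 0.545, smallest possible 0.0909, which cannot reach 0.05). Within batch 1 it is 2.72 points (exact p = 0.25).

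Across the genome, the genes furthest apart between the groups were mostly higher in CKO CBCs, and included genes of glycolysis, hemoglobin genes and *Actb*, but none passed the test chosen as the main one. The edgeR model held batch, kit and genotype, and the lone control was assumed to vary like the CKO libraries. Batches 2 and 3 hold no control, so the fitted fold changes here and below compare the control with CKO replicates 1 to 3 only. The CKO ranges printed beside them cover all 10 libraries. In this fit 0 of 16058 genes tested (0%) pass an adjusted p of 0.05, and the smallest adjusted p is 0.0705. At an unadjusted p under 0.05 there are 443 genes fitted higher in CKO (2.76%) and 292 lower (1.82%). DESeq2 calls 18 genes (0.112%), of which 17 are higher and 1 is lower. Of these, 11 are described below, and the other 7, named after their values were seen, are *Col23a1*, *Prkab2*, *Loxl2*, *Gm29650*, *Gm9869*, *F630040K05Rik* and *Fgf2os*, all higher. *Gm29650* lies on the Y chromosome, whose genes differ between the libraries as given above. All 10 CKO libraries lie above the control for 1125 genes (7.01%) and below it for 774 (4.82%). The median log2 fold change over all genes tested is -0.00434. Since every gene is compared with the same control library, such counts measure how that library differs from the others as well as the genotype.

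Single libraries decide the edgeR count. Without CKO replicate 10 it is 16 higher and 1 lower, without CKO replicate 3 it is 7 and 1, without CKO replicate 6 or without CKO replicate 7 it is 2 and 1, without CKO replicate 1 it is 2 and 0, without CKO replicate 2 it is 0 and 1, and without CKO replicate 8 it is 1 and 0. Of the 17 genes called without CKO replicate 10, 11 are also called by DESeq2 on all libraries, as are 6 of the 8 called without CKO replicate 3. Within batch 1 alone, 0 of 13047 genes pass in edgeR (467 at an unadjusted p under 0.05). DESeq2 was not run there.

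The genes with the 5 smallest p values on either side follow. *Gm17167*, a predicted gene that overlaps several pseudogenes and whose UMIs are therefore uncertain, is at 55.4 CPM in control CBCs and at 10.8, 15.0 and 22.9 in CKO, with no overlap of the groups (log2 fold change -1.80 ± 0.269, SE, edgeR adjusted p = 0.0705, DESeq2 adjusted p = 0.00110). Lower in all 10 CKO libraries too are *Gm16853* (8.69 CPM in the control against 0.498, 2.16 and 8.41 in CKO), which overlaps other genes, and *Ror2*, which encodes a Wnt receptor (4.16 against 0, 1.44 and 2.63). The same holds for *2410006H16Rik* (60.3 against 8.95, 20.5 and 35.2) and *Gm49457* (3.40 against 0, 0.537 and 1.53). The log2 fold changes of *Gm16853*, *Ror2* and *Gm49457* lie between -4.71 and -2.83, and the edgeR adjusted p of all 4 between 0.269 and 0.658. These 4 genes are not called by DESeq2, and 3 of them have few UMIs.

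Among the genes higher in all 10 CKO libraries, *Actb*, which encodes beta-actin, is at 15.1 CPM in the control and at 17.97, 46.3 and 78.8 in CKO (log2 fold change 1.49 ± 0.249, SE, edgeR adjusted p = 0.0896, DESeq2 adjusted p = 0.00114). Its CKO values in batch 1 lie between 37.4 and 45.9 CPM, and those of kit 5 are the highest. *Muc2*, a mucin gene, has 2 UMIs in control CBCs (0.378 CPM) against 2.86, 9.31 and 19.7 CPM in CKO, a pooled ratio of 31.3 (8.62 to 259, 95% exact interval of counting error). *Cacng3*, an AMPA receptor auxiliary subunit gene, has 3 UMIs in the control (0.567 CPM) against 4.97, 6.85 and 10.5 CPM, a pooled ratio of 11.8 (3.98 to 57.4). *Gm15983*, which overlaps another gene, is at 4.16 CPM against 13.2, 22.9 and 28.6. Thus each of these genes is low in the control and has no CKO library at or below it, though edgeR gave adjusted p between 0.0772 and 0.146 and DESeq2 calls *Muc2* (0.0404) and *Gm15983* (0.00148) but not *Cacng3* (0.0980). *Hbb-bs*, the fifth gene of smallest p, is described with the other hemoglobin genes.

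General bipolar genes were, as a sum, lower in most CKO libraries. The 8 genes sum to 4956 CPM in the control and to 2835, 4013 and 5180 in CKO, with 1 of 10 libraries above the control, and most of the sum is *Grik1*, described with the OFF receptor genes. *Otx2* is at 268 CPM in the control and at 207, 270 and 306 in CKO, so that the control sits inside the CKO range with 5 of 10 libraries above it. *Lhx4*, a homeobox gene, is at 184 CPM in the control and at 154, 195 and 236 in CKO. *Cabp5* is at 170 CPM in the control and 146, 187 and 266 in CKO, with CKO replicate 7 highest. *Cadps2*, which encodes a protein of vesicle release, is at 102 CPM in the control and at 49.3, 75.0 and 101 in CKO, below the control in 10 of 10 libraries (log2 fold change -0.48 ± 0.241, SE, edgeR unadjusted p = 0.0633, adjusted 1.00). Of the 8 genes of this list, 2 are fitted higher and 6 lower, 0 pass in edgeR or in DESeq2 or at an unadjusted p under 0.05, and the median log2 fold change is -0.08. For transcription factor genes of bipolar cells, 3 of 18 are fitted higher and 15 lower, with a median of -0.13 and 0 past any of these thresholds.

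The genes of the ON cascade were, as a sum, higher in CKO than in control CBCs, with most single genes inside the spread of the libraries. Summed over its 13 genes, the cascade is at 3389 CPM in the control and at 3465, 3688 and 4329 in CKO, above the control in 10 of 10 libraries. *Grm6*, which encodes mGluR6, is at 247 CPM in the control and at 189, 301 and 344 in CKO. CKO replicates 6 and 7 lie below the control and the other 8 libraries above it (log2 fold change 0.23 ± 0.131, SE, edgeR unadjusted p = 0.0959). *Trpm1*, the gene of the channel that the cascade closes, is at 1009 CPM in the control and at 887, 1031 and 1292 in CKO, with all 4 kit 5 libraries below the control and all 6 of kit 4 above it.

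*Rgs11*, which encodes a protein that speeds the recovery of the G protein, stands apart in this list. It is at 64.6 CPM in the control and at 87.0, 108 and 150 in CKO. All 10 CKO libraries are above the control, those of batch 1 between 104 and 113 CPM. Its log2 fold change is 0.74 ± 0.182 (SE), with an edgeR unadjusted p of 0.000832, an adjusted p of 0.492 and a DESeq2 adjusted p of 0.183, so it does not pass the test. *Gpr179*, which encodes the receptor-like protein that anchors RGS proteins, is at 139 CPM in the control and at 143, 162 and 206 in CKO, above the control in all 10 libraries by a small margin (log2 fold change 0.11 ± 0.129, SE), with CKO replicate 5 far above the rest.

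Of the G protein genes, *Gnb3* is at 318 CPM in the control and at 310, 374 and 568 in CKO, with 8 of 10 libraries above the control. Its protein also serves phototransduction in cones, whose markers are higher in all CKO libraries, and the part of cone RNA in the values of *Gnb3* was not tested. *Gng13* is at 23.4 CPM against 2.15, 17.4 and 30.4, below the control in 9 of 10 CKO libraries and most of all in CKO replicate 7. *Nyx* (29.9 against 22.9, 28.6 and 32.6 CPM) and *Lrit3* (24.4 against 21.6, 30.5 and 45.4), which encode proteins that place the channel at the synapse, have control levels inside the CKO range. In pooled nuclei *Lrit3* is higher in cones (267 CPM) and rods (99.1) than in CBCs (29.8). The part of photoreceptor RNA in its values was not tested. Over the 13 genes of the cascade, 9 are fitted higher and 4 lower, 0 pass in edgeR or DESeq2, 1 is higher at an unadjusted p under 0.05 (*Rgs11*, against 2.76% of all genes), and 2 lie above the control in all CKO libraries (*Rgs11* and *Gpr179*, against 7.01%). Their median log2 fold change is 0.01, against -0.00434 over all genes.

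Of the other ON genes, *Isl1*, a transcription factor gene of ON bipolar cells, is at 337 CPM in the control and at 284, 306 and 378 in CKO. *Pcp2*, which encodes a regulator of G protein signaling, is at 76.9 CPM against 56.0, 79.4 and 109. For both the groups overlap. The 3 genes of this list sum to 416 CPM in the control and to 346, 391 and 488 in CKO, with 3 of 10 libraries above the control. *Cacna1s*, a calcium channel subunit gene, is at 1.32 CPM in the control, from 7 UMIs, and at 1.59, 2.75 and 6.98 in CKO, with all 10 libraries above the control (log2 fold change 1.15 ± 0.819, SE, edgeR unadjusted p = 0.177). These 3 genes have 0 calls in edgeR, 0 in DESeq2 and 0 at an unadjusted p under 0.05.

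**Figure D2:**
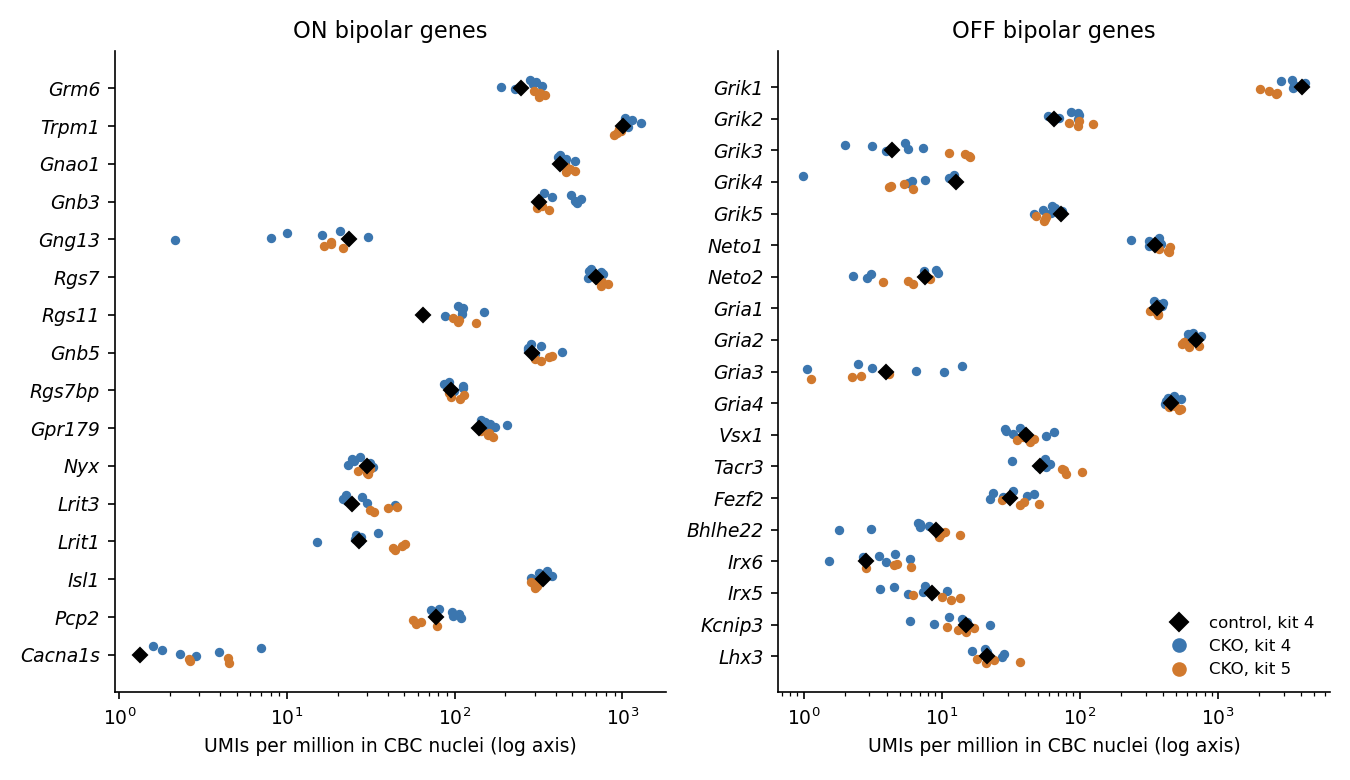
Level of 16 ON genes (left) and 19 OFF genes (right) in CBC nuclei, in CPM on a log axis, with 1 point per library. *Rgs11* lies above the control in all 10 CKO libraries, from 87.0 to 150 against 64.6, and *Grik1* is lowest in the kit 5 libraries, from 2002 to 2689.

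OFF receptor genes were, as a sum, lower in most CKO libraries, and *Grik1* made up most of that sum. The 11 genes sum to 6083 CPM in the control and to 4019, 5166 and 6406 in CKO, with 1 of 10 libraries above the control. *Grik1* alone is at 4049 CPM in the control and at 2002, 3166 and 4251 in CKO. CKO replicate 3 is above the control and the other 9 libraries are below, the 4 of kit 5 (2002 to 2689 CPM) lower than all 6 of kit 4 (2884 to 4251). With kit and batch in the model the log2 fold change of *Grik1* is -0.21 ± 0.180 (SE, edgeR adjusted p = 1.00). The kit cannot be told apart from the replicates made with it.

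The AMPA receptor genes overlapped between the groups. *Gria1* is at 364 CPM in the control and at 325, 363 and 397 in CKO, *Gria4* at 461 against 417, 463 and 541, and *Gria2* at 692 against 550, 626 and 754. Each control value is within the CKO range, as is that of *Gria3*, which has few UMIs (3.97 CPM against 1.06, 2.87 and 13.96). Among the kainate receptor genes, *Grik2* is at 65.4 CPM in the control and at 58.7, 96.7 and 124 in CKO, above it in 9 of 10 libraries with CKO replicate 5 below (log2 fold change 0.50 ± 0.205, SE, edgeR unadjusted p = 0.0269, adjusted p = 1.00). *Grik4* is at 12.7 CPM in the control and at 1.00, 5.92 and 12.3 in CKO, below it in all 10 libraries but close to it in CKO replicate 1, the highest (log2 fold change -0.51 ± 0.534, SE). *Neto1*, which encodes an auxiliary subunit of kainate receptors, is at 349 CPM in the control and at 237, 379 and 452 in CKO. Over the list, 5 genes are fitted higher and 6 lower, 0 pass in edgeR or DESeq2, 1 is higher at an unadjusted p under 0.05 (*Grik2*, against 2.76% of all genes), 1 is below the control in all CKO libraries (*Grik4*, against 4.82%), and the median log2 fold change is -0.05.

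The other genes listed for OFF CBCs showed overlap of the groups throughout. They sum to 181 CPM in the control and to 130, 194 and 273 in CKO, with 6 of 10 libraries above the control. *Vsx1*, a homeobox gene, is at 41.0 CPM in the control and at 28.9, 37.7 and 65.2 in CKO, and *Fezf2*, which encodes a zinc finger factor, at 31.4 against 22.2, 34.9 and 50.8. *Lhx3*, another homeobox gene, is at 21.4 CPM against 16.5, 21.0 and 36.9. In the clusters described below, *Vsx1* and *Lhx3* are both highest in cluster 4, named ON, at 197 and 139 CPM. Among OFF clusters *Vsx1* reaches 195 CPM (cluster 25) and *Lhx3* 89.4 CPM (cluster 16), so neither gene marks OFF nuclei alone. *Tacr3*, the neurokinin 3 receptor gene, is at 51.6 CPM in the control, at 32.4 to 61.2 in the CKO libraries of kit 4 and at 74.3 to 103 in those of kit 5. Of the 8 genes of this list 2 are fitted higher and 6 lower, with 0 calls in edgeR or DESeq2, 0 at an unadjusted p under 0.05, and a median log2 fold change of -0.25. These fitted values compare the control with batch 1 alone, where the CKO sums lie between 130 and 176 CPM, below the control.

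To put both sides into 1 value, the log2 ratio of the summed UMIs of 16 ON genes to those of 19 OFF genes was taken in each library, a value that a shift in the mix of ON and OFF cells would move. The OFF genes include *Vsx1* and *Lhx3*, which are also raised in some ON clusters. The ratio is -0.72 in the control and -0.68, -0.34 and -0.09 in CKO (mean -0.36 ± 0.19, SD, n = 10). CKO replicate 3 is closest to the control and CKO replicate 8 furthest, and all 10 lie above it. The mean difference of 0.36 gave an exact permutation p of 0.0909, the smallest that 1 control among 11 libraries can give, which cannot reach 0.05. Within batch 1 the difference is 0.24 (exact p = 0.5, where 0.25 is the smallest possible).

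Most of this difference comes with *Grik1*, which carries most of the OFF UMIs. Without *Grik1*, a choice made after seeing the data, the ratio differs by 0.12 with 8 of 10 libraries above the control (exact permutation p = 0.455). With kit 4 libraries only, also chosen after seeing the data, the difference is 0.27 with 6 of 6 above (exact p = 0.286, smallest possible 0.143). With *Grm6*, *Trpm1* and *Isl1* over *Grik1*, *Vsx1* and *Tacr3* it is 0.43 with 9 of 10 above (exact p = 0.273). The part of the kit in these values cannot be told apart from the replicates made with it.

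**Figure D3:**
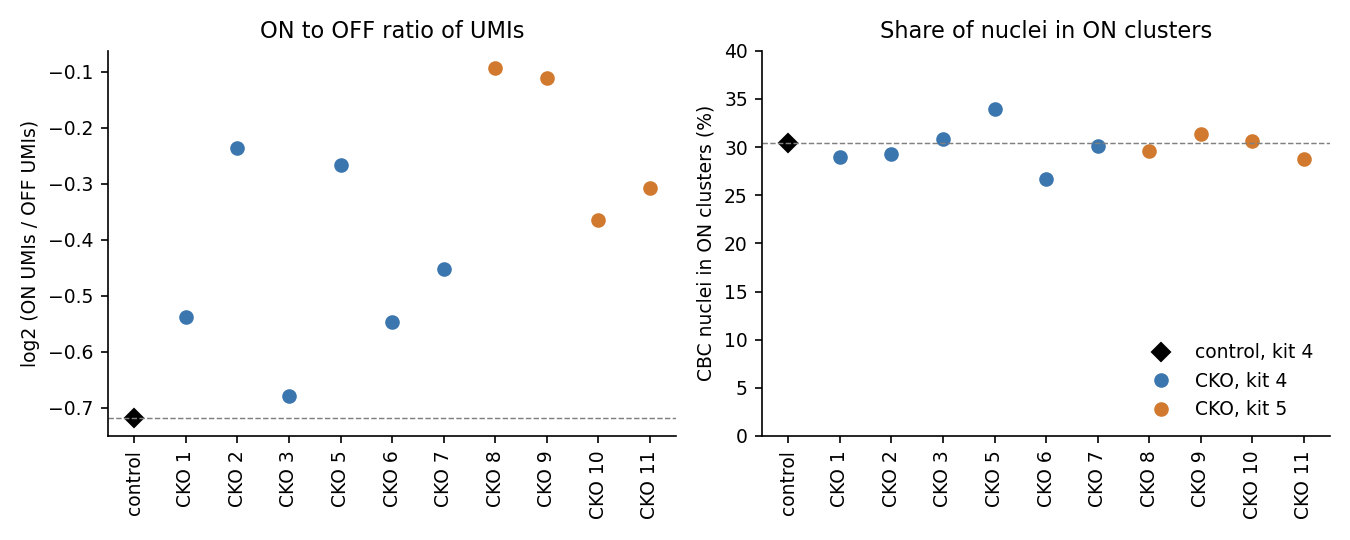
The log2 ratio of ON to OFF UMIs in the CBC nuclei of each library (left) and the percent of CBC nuclei that fall in ON clusters (right), with the control level as a dashed line. All 10 CKO ratios lie above the control value of -0.72, whereas 4 of 10 CKO shares lie above the control share of 30.4%.

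Clustering gave a count of the nuclei in ON and OFF clusters. The 9813 CBC nuclei fell into 25 clusters at Leiden resolution 1, named from ON, OFF and other cell type markers by a rule set after seeing the data, and a cluster's own genes are a description of it, without a test. There are 8 ON clusters with 2994 nuclei (30.5%), 5 OFF clusters with 2213 (22.6%), 6 clusters with 2674 nuclei (27.2%) that met no rule for a name, and 6 mixed clusters with 1932 nuclei (19.7%), in which at least 3 markers of another cell type were raised and no fewer than of ON or OFF. At least 3 markers of another type were raised also in clusters 12 and 24, named ON, and in clusters 10 and 22, without a name, whose nuclei stay in where mixed clusters are left out. In clusters 10, 22 and 24 all 4 RBC markers of the naming rule are raised, and *Trpm1* is at 3345, 3801 and 5526 CPM. Clusters 6 (647 nuclei) and 11 (486) have the highest level of *Grik1*, at 26821 and 17946 CPM, but with *Grik1* and *Fezf2* as their only raised OFF markers they met no rule for a name and are not counted as OFF. Among the mixed clusters, cluster 14 is led by the cone genes *Pde6c*, *Arr3* and *Opn1mw*, and cluster 18 has *Pax6* and *Tfap2b*, genes of amacrine cells, among its leading genes. Cluster 8 (560 nuclei) is mixed by a tie. In it 3 ON markers (*Isl1*, *Nyx* and *Gnb3*) and 3 RBC markers (*Prkca*, *Car8* and *Vstm2b*) are raised, and no rod, Müller glia or amacrine marker. Clusters 7 (593 nuclei) and 13 (359) have 1 raised ON marker each, *Gnb3* and *Gpr179*, and no OFF marker. They are not counted as ON. Cluster 12, with 391 nuclei, was named ON although its leading genes are the hemoglobin genes *Hbb-bt*, *Hbb-bs*, *Hba-a2* and *Hba-a1*, since red blood cells are not among the classes of the naming rule.

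The ON share of CBC nuclei overlapped between the groups, and the size of its difference changed with the setting. It is 30.4% in the control and 26.7%, 29.8% and 33.9% in CKO (mean 30.0% ± 1.90, SD, n = 10), with CKO replicate 6 lowest, CKO replicate 5 highest and the control inside the range. The difference is -0.416 points (exact permutation p = 0.909, smallest possible 0.0909) and -0.709 in batch 1. It is -2.08 points (CKO SD 1.89, exact p = 0.364) in nuclei with at least 1000 UMIs and -1.73 (CKO SD 1.69, exact p = 0.455) at resolution 2, larger than the spread of the CKO libraries, with 9 of 10 below the control in both. With a lower fold for raised markers, added after seeing the data, it is -1.52 (CKO SD 1.95, exact p = 0.364). With cluster 12 not counted as ON, also added after seeing the data, it is -1.38 (CKO SD 2.25, 9 of 10 below the control, exact p = 0.455). Taken over ON and OFF clusters alone, a choice made after seeing the data, the share is 56.2% in the control and 52.0%, 57.1% and 60.7% in CKO, and the difference turns to 0.614 points (exact p = 0.818). Mixed clusters hold 17.1% of CBC nuclei in the control and 15.0%, 19.8% and 28.1% in CKO. Without the nuclei of mixed clusters, also chosen after seeing the data, the ON to OFF ratio of UMIs differs by 0.40 (exact p = 0.0909), so it is as large without them.

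Genes known to mark single CBC types were mostly fitted slightly lower in CKO. *Pcdh17*, an adhesion gene, is at 316 CPM in the control and at 175, 268 and 304 in CKO, and *Nnat*, which encodes neuronatin, at 73.7 against 24.2, 48.6 and 68.7. Both are below the control in all 10 CKO libraries, *Nnat* most in those of kit 5. *Erbb4*, a neuregulin receptor gene, is at 782 CPM in the control and at 395, 712 and 801 in CKO, and *Sox6*, a transcription factor gene, at 685 against 455, 540 and 688. For each of them 1 CKO library is above the control. *Hcn4*, a gene of a hyperpolarization-activated channel, goes the other way, at 7.75 CPM in the control and 7.48, 11.8 and 21.5 in CKO, with 9 of 10 libraries above. Over 18 such genes, 2 are fitted higher and 16 lower, with 0 calls in edgeR or DESeq2, 0 at an unadjusted p under 0.05, 2 below the control in all CKO libraries (against 4.82% of all genes) and a median log2 fold change of -0.21.

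The same genes lead some of the clusters, of which 11 have 1 or more of 11 type markers among their 10 leading genes. *Igfn1* is among those of cluster 2, *Pcdh17* of cluster 5, *Nnat* and *Prkar2b* of cluster 6 and *Chrm2* of cluster 7. *Slitrk5* is among those of cluster 8, *Erbb4* of cluster 9, *Col11a1* of cluster 11 and *Lrrtm1* of cluster 13. *Pcdh10* is among those of cluster 16 and *Cpne9* of clusters 19 and 24. In 4 of the 25 clusters (16%) the control share lies outside the CKO range. It is above it in cluster 1 (9.68% of CBC nuclei against 5.502% to 9.13%), cluster 6 (9.07% against 4.44% to 7.77%) and cluster 8 (6.69% against 4.80% to 6.54%), and below it in cluster 19 (1.38% against 1.44% to 2.54%). With 10 CKO libraries and 1 control these gaps are a description, and the differences were not tested.

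Synaptic genes of CBCs gave 0 calls in either tool. *Syt1*, the synaptic calcium sensor gene, is at 4014 CPM in the control and at 3258, 3834 and 4763 in CKO, and *Rims2*, an active zone gene, at 2165 against 1863, 2196 and 2322. Of 22 ribbon synapse and release genes, 11 are fitted higher and 11 lower, with 0 calls in either tool, 1 lower at an unadjusted p under 0.05 (against 1.82% of all genes) and a median log2 fold change of 0.01. For the 16 genes of GABA and glycine receptors, which take the input of amacrine cells, 5 are fitted higher and 11 lower, 4 are lower at an unadjusted p under 0.05 (against 1.82%), 2 lie below the control in all CKO libraries (against 4.82%) and 1 above it (against 7.01%), 0 are called by either tool and the median is -0.06. In the 16 genes of voltage-gated channels there are 5 higher and 11 lower, 0 at an unadjusted p under 0.05 and 0 calls in edgeR or DESeq2. The most abundant of them, *Kcnip4*, which encodes a potassium channel subunit, is at 9890.3 CPM in the control and at 4312, 7485 and 9739.9 in CKO. It is lowest in the kit 5 libraries, as *Grik1* is (log2 fold change -0.25 ± 0.163, SE, edgeR adjusted p = 1.00). Adhesion and guidance genes (13 of 23 fitted higher, 1 at an unadjusted p under 0.05, against 2.76% of all genes) have 0 calls in edgeR or DESeq2 as well.

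Genes of hypoxia and glycolysis were mostly higher in CKO than in control CBCs. Low oxygen stabilizes HIF transcription factors, which raise glucose uptake, glycolytic enzymes and regulators of mitochondria. Summed over 30 genes with UMIs in both annotations, the list is at 1843 CPM in the control and at 2475, 3459 and 3896 in CKO. All 10 CKO libraries are above the control, by the least in CKO replicate 7, and those of batch 1 lie between 2828 and 3749. Of the 28 genes tested, 27 are fitted higher and 1 lower, 21 are higher at an unadjusted p under 0.05 (against 2.76% of all genes), 13 lie above the control in all CKO libraries (against 7.01%), 4 are called by DESeq2 (against 0.112%) and 0 by edgeR. The median log2 fold change is 0.86, against -0.00434 over all genes.

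*Pfkp* and *Pfkl* encode forms of phosphofructokinase, which commits sugar to glycolysis. *Pfkp*, the most abundant gene of the list, is at 497 CPM in the control and at 645, 1111 and 1403 in CKO, with batch 1 between 983 and 1403 (log2 fold change 1.27 ± 0.240, SE, edgeR adjusted p = 0.146, DESeq2 adjusted p = 0.000462). *Pfkl* is at 61.0 CPM in the control and at 66.2, 108 and 149 in CKO (0.88 ± 0.194, SE, edgeR 0.269, DESeq2 0.0413). For both, all 10 CKO libraries are above the control. *Pkm*, the pyruvate kinase gene, is at 138 CPM against 159, 234 and 305, also above in all 10 libraries, though neither tool calls it (0.48 ± 0.171, SE, edgeR adjusted p = 0.947).

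*Pdk1*, which encodes a pyruvate dehydrogenase kinase, is at 38.5 CPM in the control and at 38.0, 90.6 and 119 in CKO. CKO replicate 10 is the one at the control level, and the other 9 libraries are at 77.5 CPM or more (edgeR adjusted p = 0.363, DESeq2 adjusted p = 0.0350). *Bnip3l*, a gene of mitochondrial removal, is at 47.6 CPM in the control and at 55.7, 86.3 and 94.1 in CKO, above it in all 10 libraries (0.90 ± 0.193, SE, edgeR 0.264, DESeq2 0.0487). CKO replicate 10 is again lowest. Without that library edgeR calls 5 genes of the list, *Pdk1* (adjusted p = 0.00273), *Pfkp* (0.0300), *Eno1* (0.0300), *Bnip3l* (0.0443) and *Hk2* (0.0443), and without CKO replicate 3 it calls *Pfkp* (0.0415). CKO replicate 10 is in batch 3, so it enters the test through the spread between libraries. The log2 fold changes of *Pfkp* (1.27) and *Bnip3l* (0.90) are the same without it. *Vegfa*, the vascular growth factor gene that is also on the list, is at 73.3 CPM in the control and at 56.9, 111 and 153 in CKO, with 9 of 10 libraries above the control and CKO replicate 7 below (0.49 ± 0.238, SE, edgeR unadjusted p = 0.0540, adjusted p = 1.00).

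**Figure D4:**
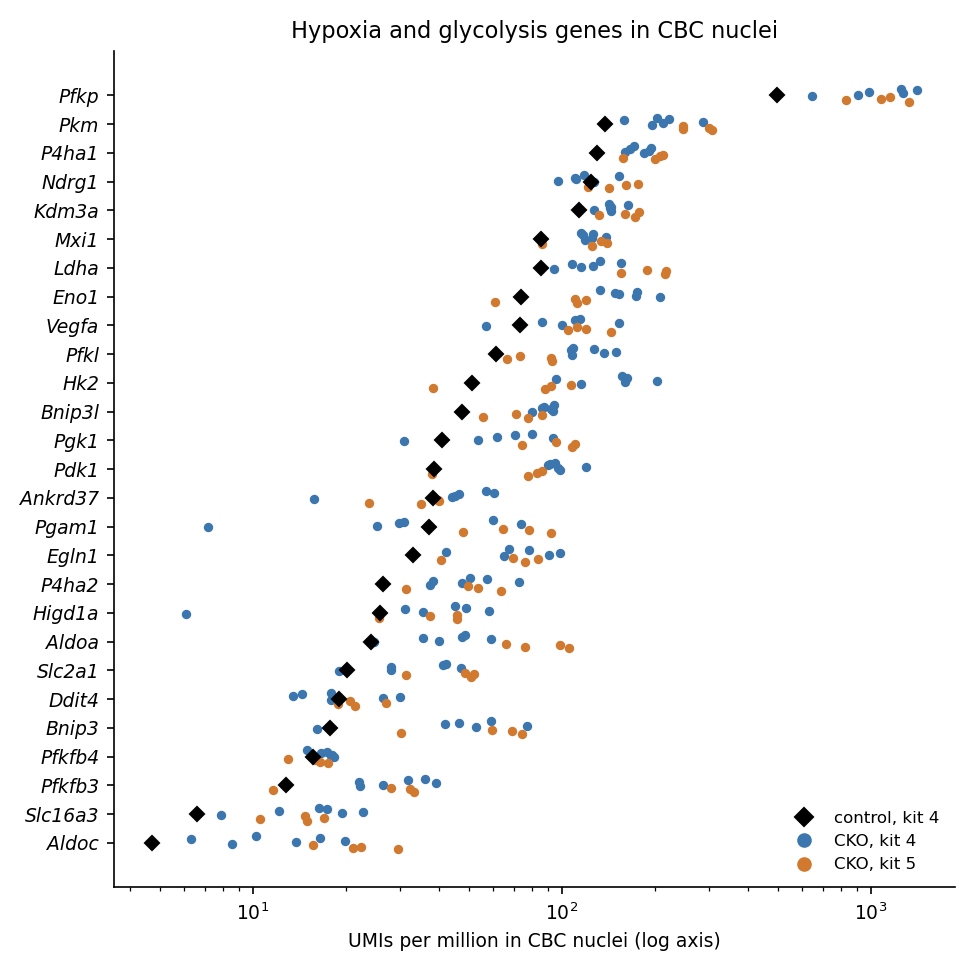
Level of 27 hypoxia and glycolysis genes in CBC nuclei, in CPM on a log axis, with 1 point per library and genes ordered by the control level. *Pfkp* lies above the control value of 497 in all 10 CKO libraries, and *Pdk1* in 9 of 10.

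The sum of this list was also above the control in most other retinal types. In RBCs it is at 1658 CPM in the control and at 2508, 3536 and 4192 in CKO, in horizontal cells at 1791.7 against 2349, 2916 and 3374, and in Müller glia at 2784 against 3587, 4587 and 5518. Rods are at 1702 CPM against 1863, 2361 and 2955. In cones (1593 against 1107, 2026 and 2338) and ganglion cells (1585 against 913, 1888 and 2287) the groups overlap. Since all types share their libraries, these values are not independent of those in CBCs. For *Pfkp* the fold change in CBCs minus that in RBCs is -0.33 on the log2 scale (edgeR adjusted p = 0.780), so a difference between these types was not shown for it. Of the 28 genes of the list, 1 is called as different (against 0.413% of all genes). It is *P4ha2*, a prolyl hydroxylase gene, at 26.5 CPM in control CBCs against 31.2, 50.1 and 72.9 in CKO, all 10 above (log2 fold change 0.87 ± 0.291, SE, edgeR adjusted p = 0.885). It has 0 UMIs in control RBCs, where 3 counts would be 1.43 CPM. In CKO RBCs it is at 2.52, 8.67 and 17.1 CPM. Pooled it is at 10.0 CPM there, 6.98-fold above the 3-count value, which covers counting error in the control only. Its fitted difference of -7.59 (edgeR adjusted p = 0.00263) depends on the prior count and is no bound.

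Shown are the promoters of 3 of the 4 genes of this list that DESeq2 calls (*Bnip3l* has no row in the promoter table). They are given because 27 of the 28 genes tested are fitted higher, though edgeR calls 0, and HIF binds DNA at a short core. The sequences run from 250 bases before to 50 after a RefSeq transcript start (build GRCm38.p6) and are printed 5′ to 3′ on the strand of the gene, with each match to ACGTG or GCGTG, searched on both strands, in capitals. *Pfkp* is at chr13:6648722-6649021 on the minus strand with 4 matches, *Pfkl* at chr10:78009758-78010057 on the minus strand with 1, and *Pdk1* at chr2:71872974-71873273 on the plus strand with 2. Of the 2 starts of *Pdk1* the one with more matches is shown, and the other has 0. A match is a description of the letters, not a site.
Pfkp: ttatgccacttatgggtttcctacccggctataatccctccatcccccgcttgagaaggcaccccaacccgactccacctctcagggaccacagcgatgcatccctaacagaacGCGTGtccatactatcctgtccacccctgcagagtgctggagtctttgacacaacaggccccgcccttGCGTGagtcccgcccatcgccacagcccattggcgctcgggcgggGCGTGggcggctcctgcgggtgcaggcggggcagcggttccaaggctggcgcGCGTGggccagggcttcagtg
Pfkl: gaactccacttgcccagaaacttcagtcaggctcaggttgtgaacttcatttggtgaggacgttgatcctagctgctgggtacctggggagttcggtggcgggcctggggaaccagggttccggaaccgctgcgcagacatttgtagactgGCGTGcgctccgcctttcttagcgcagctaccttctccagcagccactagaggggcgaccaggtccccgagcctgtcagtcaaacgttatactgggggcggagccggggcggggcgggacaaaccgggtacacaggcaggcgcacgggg
Pdk1: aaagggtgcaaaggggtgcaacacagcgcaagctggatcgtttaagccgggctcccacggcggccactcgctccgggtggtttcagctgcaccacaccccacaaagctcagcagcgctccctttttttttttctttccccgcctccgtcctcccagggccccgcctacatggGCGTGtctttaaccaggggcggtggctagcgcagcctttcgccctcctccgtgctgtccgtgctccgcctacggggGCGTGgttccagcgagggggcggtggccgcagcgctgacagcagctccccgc

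Of the 31 genes of the list, 29 had a promoter in the RefSeq table, with 43 promoters in all. At least 1 match is in 36 of these 43 (83.7%), against 43.8% of all 32851 promoters. The promoters were not matched for base composition, whose part in this difference was not tested.

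Hemoglobin transcripts were far higher in the CKO CBC nuclei. The 5 red blood cell genes sum to 5.10 CPM in the control and to 58.1, 132 and 208 in CKO, without overlap. *Hbb-bs*, the most abundant, has 8 UMIs in the control (1.51 CPM) against 26.9, 64.8 and 104 CPM in CKO, with 10 of 10 libraries above (log2 fold change 4.78 ± 0.837, SE, edgeR adjusted p = 0.113, DESeq2 adjusted p = 0.000645). *Hba-a1* is at 0.756 CPM, from 4 UMIs, against 10.2, 19.2 and 45.7 (edgeR adjusted p = 0.217, DESeq2 adjusted p = 0.0279), and near-identical copies make the split between *Hba* or *Hbb* genes uncertain. All 5 genes are fitted higher, 4 at an unadjusted p under 0.05 (against 2.76% of all genes), and 2 are called by DESeq2 (against 0.112%) and 0 by edgeR. Rods hold them too, at 7.21 CPM in the control against 65.3, 163 and 456 in CKO, as do RBCs at 6.21 against 0, 90.3 and 630.1, so they are not particular to CBCs. How much of this RNA lay in the CBC nuclei and how much came with the droplets was not tested.

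Other groups of genes showed smaller differences. Of 12 inflammation genes, 10 are fitted higher and 2 lower, 3 are above the control in all CKO libraries (against 7.01% of all genes), 3 are higher at an unadjusted p under 0.05 (against 2.76%), 1 is called by DESeq2 (*Fgf2*, against 0.112%) and 0 by edgeR, with a median log2 fold change of 0.36. *Stat3*, which encodes a transcription factor of cytokine signaling, is at 99.6 CPM in the control and at 117, 160 and 193 in CKO, above it in all 10 libraries (0.49 ± 0.235, SE, edgeR unadjusted p = 0.0539, adjusted p = 1.00). *Fgf2*, a growth factor gene of the inflammation list named here after its values were seen, is at 4.35 CPM against 15.3, 30.7 and 46.9 (edgeR adjusted p = 0.169, DESeq2 adjusted p = 0.000462), and its UMIs are uncertain because an antisense gene overlaps it. Interferon and MHC class I genes are fitted higher for 12 of 15, with 2 higher at an unadjusted p under 0.05 (against 2.76%), 0 calls in edgeR or DESeq2 and a median of 0.30. Their sum is at 77.5 CPM in the control and at 83.4, 92.3 and 106 in CKO, so that all 10 libraries lie slightly above the control.

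Genes of TGF-beta signaling gave no call in CBCs. *Tgfbr1* has 128 CPM in the control, and 97.8, 109 and 120 in CKO, below the control in all 10 libraries (log2 fold change -0.34 ± 0.140, SE, edgeR unadjusted p = 0.0274, adjusted p = 1.00). Counts per gene do not separate transcripts of the null allele, so the value does not measure intact *Tgfbr1*. *Tgfb2*, the most abundant ligand gene of the list, is at 138 CPM in the control and at 108, 134 and 161 in CKO. Of 14 genes 4 are fitted higher and 10 lower, 1 in each direction at an unadjusted p under 0.05 (against 2.76% and 1.82% of all genes), with 0 calls in edgeR or DESeq2. Nuclear genes of mitochondrial respiration (10 of 15 fitted higher, 0 at an unadjusted p under 0.05, 0 called by either tool) have a median of 0.04. Genes of the mitochondrial genome, of which 9 of 11 are fitted higher, 1 at an unadjusted p under 0.05 (against 2.76%), and 0 are called by either tool, have a median of 0.56. Their sum is at 56.5 CPM in the control and at 11.5, 59.8 and 88.2 in CKO, with 5 of 10 libraries above the control. The fitted values compare the control with batch 1 alone, where the CKO sums lie between 49.1 and 88.2 CPM. The part of RNA quality in these values was not tested.

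RBCs are the nearest other type, and the genotype effect in CBCs was compared with theirs within libraries. In edgeR the difference of the effects passes an adjusted p of 0.05 for 70 of 16964 genes (0.413%), 11 with a higher and 59 with a lower fold change in CBCs. With batch and kit terms, this difference compares the control with CKO replicates 1 to 3 only. The CKO ranges below cover all CKO libraries that hold both types. For 66 of the 70 the level is higher in CBC than in RBC nuclei, and for 55 the control value in CBCs lies inside the CKO range. Without the batch and kit terms, where the control is compared with all CKO libraries that hold both types, 1 gene passes (*Tafa2*). With at least 100 UMIs per gene 17 pass. Of the 70 genes, 57 have both a higher level and a lower fold change in CBCs. *Lsamp*, an adhesion gene, is at 1615 CPM in control CBCs against 1075, 1324 and 1778 in CKO, and at 10.5 CPM in control RBCs against 5.25, 26.5 and 107 (difference of log2 fold changes, CBC minus RBC, -2.88 ± 0.356, SE, edgeR adjusted p = 1.83e-08). *Lrrc4c*, a synaptic adhesion gene, is at 1284 against 1033, 1207 and 1384 in CBCs and at 16.2 against 15.1, 60.3 and 88.5 in RBCs (-2.08 ± 0.262, SE). The control lies inside the CKO range in CBCs for both.

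*Tafa2*, which encodes a secreted protein, has the smallest p and goes the other way. It is at 416 CPM in control CBCs against 251, 300 and 386 in CKO, and at 46.8 CPM in control RBCs against 0, 1.33 and 4.99, so the control is highest in both types (difference 3.66 ± 0.378, SE, edgeR adjusted p = 1.53e-11). *Adgrl3*, which encodes a latrophilin, is at 837 CPM against 594, 693 and 902 in CBCs and at 2.39 against 7.45, 18.7 and 39.9 in RBCs (-3.46 ± 0.507, SE). *Mgat4c*, a glycosyltransferase gene, has 0 UMIs in control RBCs, where 3 counts would be 1.43 CPM. In CKO RBCs it is at 0, 8.36 and 31.2 CPM, so the lowest CKO library is at 0 as the control is. Pooled over the CKO libraries it is at 10.4 CPM, 7.26-fold above the 3-count value, which covers counting error in the control only. Its fitted difference of -8.99 depends on the prior count and is no bound. In CBCs it is at 299 CPM in the control and at 315, 348 and 423 in CKO, all 10 above.

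Among the lists described above, against 0.413% of all genes, the OFF receptor genes have 2 calls of 11, the adhesion and guidance genes 4 of 23, the voltage-gated channels 2 of 16, the hypoxia and glycolysis genes 1 of 28 (*P4ha2*), the inflammation genes 1 of 13 (*Stat3*), and the ON cascade and the other lists 0. *Gria2* is at 2.87 CPM in control RBCs against 3.48, 18.7 and 31.4 in CKO (difference -3.09 ± 0.485, SE, edgeR adjusted p = 1.92e-05). *Grik2* has 1 UMI in control RBCs (0.478 CPM) against 0, 3.97 and 24.9 CPM in CKO, a pooled ratio of 9.85 (1.71 to 394). Its difference is -4.19 ± 0.949 (SE, edgeR adjusted p = 0.0108). Of the channel genes, *Kcnip4* is at 1515 CPM in control RBCs against 424, 684 and 1239 in CKO, below the control in all libraries of both types (difference 0.93 ± 0.172, SE, edgeR adjusted p = 0.000444). *Stat3* is at 55.9 CPM in control RBCs against 90.6, 174 and 234, above the control in all libraries of both types (-0.92 ± 0.220, SE, edgeR adjusted p = 0.0209). Without the batch and kit terms none of the genes named in this paragraph passes, with at least 100 UMIs per gene *Gria2* and *P4ha2* pass, and *Stat3* does not without CKO replicate 1 or without CKO replicate 5.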

How the data were processed

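For every retinal nucleus the authors deposited UMI counts, obtained with PIPseeker, cleared of empty droplets and background RNA by CellBender and of doublets by SOLO. They also removed by hand nuclei that might be mixed, and clusters that held multiple nuclei from CKO replicates 4 and 5. The submitters' notes name the mm10 build and the paper GRCm39, and no gene position of the counts was used. Cell type, batch and kit are the authors' labels, and other retinal and the brain nuclei served only where named. Libraries were the replicates. Counts were summed over CBC nuclei and given as CPM, UMIs per 1000000.

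For shares and ratios, exact permutation tests (two-sided) were run over libraries. Intervals are exact, at 95%, and cover counting error only. Genes with UMIs in both annotations and at least 30 UMIs were tested with edgeR 4.0.16 (TMM, quasi-likelihood, batch, kit and genotype as terms, Benjamini-Hochberg adjustment, threshold 0.05) and DESeq2 1.42.0, in R 4.3.3 with limma 3.58.1, in libraries with at least 20 CBC nuclei. The comparison with RBCs used library, cell type, and its interactions with batch, kit and genotype. With batch as a term, genotype effects in both comparisons rest on batch 1, which alone holds a control. The control, a single library, was assumed to vary as much as CKO libraries do. Both tools were tested on simulated data.

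CBC nuclei were clustered with scanpy 1.11.5 and igraph 0.11.9 (2000 variable genes, 20 principal components, 15 neighbors, resolution 1). A marker counted as raised at 1.5-fold and in at least 5% of the nuclei of a cluster. An ON or OFF name needed 3 raised markers, more than any other class, and no other class with more markers among the 10 leading genes. Mixed clusters had 3 raised markers of another cell type and no fewer than of ON or OFF. This naming rule was set after the clusters had been seen. Other steps used Python 3.11.15, numpy 2.4.6, pandas 2.3.3, scipy 1.17.1, scikit-learn 1.9.0, anndata 0.12.19 and matplotlib 3.10.9.

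The members and the 36 gene lists were chosen with earlier results of these data known, so lists are described by counts and medians beside those of all genes tested. Named are genes of the bipolar, ON, OFF and type lists, the 5 smallest p values on either side of the genome-wide test, of other lists the 2 most abundant and those called, *Tgfbr1* and sex chromosome genes. One gene is not reported here and was taken out of 2 lists after they had been run. Genes that only DESeq2, or edgeR without 1 library, calls were named after their values were seen. Alternatives covered the model terms, tool, scaling, filters, depth of nuclei, denominators, batch, clustering resolution and each CKO library, though not all for every result. For the comparison with RBCs, run in edgeR alone, they were the model terms, the filter and each CKO library that holds both types. Some were added after seeing the data, as stated where they appear.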

Additional observations from a re-analysis of the deposited data

Results flagged for a closer look

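In 4 genes 1 CKO library lay far from the other 9. *Cabp5* is at 266 CPM in CKO replicate 7 and between 146 and 208 in the others. *Gpr179* is at 206 CPM in CKO replicate 5 against 143 to 174, and *Gm16853* at 8.41 in CKO replicate 6 against 0.498 to 2.98. *Pdk1* is at 38.0 CPM in CKO replicate 10, against 77.5 to 119 in the others. These are 4 of 61 sets of CKO values looked at in this way, where chance alone gives about 1 in 20.

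The genotype effect differed between CBC and RBC nuclei for 70 genes by the test of the difference in edgeR. The differences of log2 fold changes, CBC minus RBC, are 3.66 for *Tafa2*, -2.88 for *Lsamp*, -2.08 for *Lrrc4c*, -8.99 for *Mgat4c* (0 UMIs in control RBCs, so the value is no bound), -3.46 for *Adgrl3*, -3.09 for *Gria2*, -4.19 for *Grik2*, 0.93 for *Kcnip4*, -0.92 for *Stat3* and -7.59 for *P4ha2* (also with 0 UMIs in control RBCs). Without the batch and kit terms, *Tafa2* is the 1 gene that passes and the other 9 named genes do not.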

How the results depend on the processing

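The difference in CBC share (CKO minus control) turned to -1.39 points among nuclei with at least 1000 UMIs and -2.04 of nuclei other than rods, with CKO replicate 4 at 0 and 6 and 7 of the 11 CKO libraries above the control, and ranged from -0.0595 to 1.499 when each CKO library was left out. The CBC share of bipolar nuclei turned to -1.35 when amacrine nuclei joined the denominator, which also brings in CKO replicate 4 at 0, while the other 10 CKO libraries lie above the control. The ON share differed by -2.08 points among nuclei with at least 1000 UMIs, by -1.73 at resolution 2, by -1.52 with a lower fold for markers and by -1.38 with cluster 12 not counted as ON, and turned to 0.614 over ON and OFF clusters alone. Gene counts (higher and lower) were 17 and 1 with DESeq2, 82 and 26 with 1 UMI as the only filter, 0 and 1 with kit and genotype or with genotype alone, and from 0 to 16 and 0 to 1 with each CKO library left out. They were 0 and 0 in the other 7 alternatives, including the control batch, RLE scaling and deeper nuclei. Among these 7, the fit of every library with a CBC nucleus holds the same 11 libraries as the main fit and could not differ from it. The comparison with RBCs gave 1 and 0 without batch and kit terms and 3 and 14 with at least 100 UMIs, and from 7 to 15 and 34 to 79 with each CKO library left out, where those of batches 2 and 3 were added after seeing the data. No other tool, scaling or depth was tried for it. The cause was not tested in any of these. The ON to OFF ratio kept its direction throughout. For 56 named genes, 1138 of 1171 values kept their sign, and the 33 others belong to 15 genes that no alternative calls. The 1171 values include those of the fit of every library with a CBC nucleus, whose signs could not change. The single control library and its depth of 5292168 CBC UMIs limit every comparison, most of all in genes with few UMIs. No paired analysis was possible because there is 1 control library, without a replicate number in the labels. This holds for the genotypes, while CBCs and RBCs were compared within libraries.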
